A study of Brachypodium distachyon with 6 samples.

Results

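The transcription factors (TFs) described here head the stomatal regulons of the study, a regulon being a TF together with the target genes assigned to it. The study inferred these regulons from single-cell transcriptomes of the stomatal lineage in young leaves of the grass *Brachypodium distachyon*, and listed them for 8 stomatal clusters. Of the 147 distinct TFs in that list, 8 that also stand in the study's table of named genes were set apart, which left 139 TFs. All 139 were found among the 36647 genes counted, and all 139 passed the filter on low counts, which left 23677 genes for testing.

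Bulk RNA sequencing compared developmental leaf zones whose cells had been released as protoplasts with intact zones, to find genes whose level changes with the procedure. Protoplasts are cells freed from their walls, here with Macerozyme R10 and Cellulase Onozuka RS. All plants were soil-grown, 3 wk old Bd21-3 wild types. The groups were 3 protoplasted libraries, each from 10 leaf zones, and 3 non-protoplasted control libraries, each from 5 leaf zones, so that each library pools several leaves. Samples were grouped by their titles and library names. The labels contradict themselves here, because the entry for treatment gives the opposite group in all 6 samples. The groups are therefore called by their titles, as libraries labelled protoplasted and labelled non-protoplasted. Exchanging them would turn the sign of every difference below and leave its size as it is. Whether the titles or the treatment entries are right was not tested.

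Stomata of grasses are complexes of a guard cell pair flanked by subsidiary cells. Protodermal cells in stomatal files divide to give a guard mother cell (GMC), which recruits subsidiary cells (SCs) from neighbouring subsidiary mother cells (SMCs) and then divides into guard cells (GCs), and the sister cells left between stomata are interstomatal cells. The bHLH factors SPEECHLESS, MUTE and FAMA act one after the other along this path. Many other TF families have members that respond to wounding, osmotic change or heat, among them WRKY, AP2/ERF, NAC, C2H2 zinc finger and heat shock factors (HSF), as known mostly from *Arabidopsis thaliana*.

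Each library held between 17482438 and 24621927 counts, so that 3 counts stood at 0.106 to 0.205 CPM (counts scaled by library size). A change is called at an adjusted p under 0.05 (edgeR quasi-likelihood test, Benjamini-Hochberg over 23677 genes), and each log2 fold change (log2FC) is protoplasted over non-protoplasted. At that threshold 77.0% of all genes tested changed, with 38.7% higher in the libraries labelled protoplasted and 38.3% lower. Protoplasted replicate 1 stood apart from the other 2 libraries of its group, with 47.0 against replicate 2 and 39.6 against replicate 3 as chi-square divided by its degrees of freedom, whereas replicates 2 and 3 gave 12.1. The 3 pairs of non-protoplasted libraries gave 7.03 to 18.4, so that no pair matched within sampling noise. Of 26 cell type markers, 18 were higher in the libraries labelled protoplasted, beside the 38.7% of all genes tested. The vasculature marker *BdVND-like2* was the 1 that was lower. The markers *BdCST1*, *BdKN1*, *BdKNAT1-like* and *BdFCP1* had too few counts to be tested. The summed TPM (transcripts per kilobase, scaled to an equal total per library) of the 6 stomatal lineage markers was 25.4 to 39.4 in the libraries labelled protoplasted, against 9.25 to 12.3 in those labelled non-protoplasted. The 3 epidermis markers summed to 329 to 501 TPM in the libraries labelled protoplasted, against 39.6 to 52.2 TPM in those labelled non-protoplasted. Most of this sum came from *BdPDF1*, at 291 to 447 TPM in the libraries labelled protoplasted, against 24.0 to 31.5 TPM in those labelled non-protoplasted. The epidermis marker *BdPDF2-like* was higher too, and *BdHDG2-like* was not called (log2FC 0.36). The 2 mesophyll markers summed to 127 to 145 TPM in the libraries labelled protoplasted, against 49.0 to 53.9 TPM in those labelled non-protoplasted. The shoot apex markers *BdKN1* and *BdKNAT1-like* had 0 counts in every library. These sums ran against the direction of most regulon TFs described next, and their part in that result was not tested. In bulk samples, fewer cells of a type and less RNA per cell cannot be told apart.

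Most regulon TFs were lower in the libraries labelled protoplasted. Of the 139, 93 were lower, 28 were higher and 18 were not called, so that 66.9% were lower, against the 38.3% of all genes tested. At a mean above 26.85 CPM over all 6 libraries, 70 of 98 TFs were lower, against 45.9% of genes at that level. From 4.98 to 26.85 CPM 21 of 38 TFs were lower, against 34.0% of genes, and under 4.98 CPM 2 of 3 TFs, against 35.1%. A log2FC below −3, the limit the study used for genes affected by the procedure, was reached by 56 of the 139 TFs, against 12.6% of all genes. None of the 139 rose above a log2FC of 3, by edgeR at the adjusted or an unadjusted p under 0.05, or by DESeq2, whereas 5.09% of all genes did. The median log2FC of the 139 TFs was −1.82, with quartiles of −4.62 and 0.14, beside a median of 0.04 over all genes tested. In 96 TFs all 3 libraries labelled protoplasted lay below all 3 labelled non-protoplasted, a pattern seen in 40.1% of all genes. The opposite order was seen in 30 TFs (40.4% of all genes), and the groups overlapped in 13 TFs.

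As a class these TFs were abundant in the libraries labelled non-protoplasted. The median of their mean levels was 14.98 TPM in the libraries labelled protoplasted and 58.8 TPM in those labelled non-protoplasted, whereas all genes tested had medians of 8.93 TPM in the libraries labelled protoplasted and 8.44 TPM in those labelled non-protoplasted. A mean level of at least 10 TPM was reached by 84 of the 139 TFs in the libraries labelled protoplasted and by 122 in those labelled non-protoplasted. Summed over all 139 TFs, the level was 5617, 4127 and 4699 TPM in the libraries labelled protoplasted, against 17812, 18481 and 17624 TPM in those labelled non-protoplasted. The rank order of the TFs was not kept either. Across the 139 TFs, mean TPM in one group had a Spearman's rho with mean TPM in the other of −0.0092, given as a description because the TFs share the same libraries. Of the 20 TFs with the highest mean TPM in each group, 5 were in both lists. The same comparison was not made over all genes, so the loss of rank order is not shown to be particular to these TFs. The most abundant TF in the libraries labelled protoplasted was the C2H2 zinc finger gene BdiBd21-3.2G0186800, with 459, 531 and 515 TPM, against 170, 292 and 247 TPM in those labelled non-protoplasted.

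**Figure D1:**
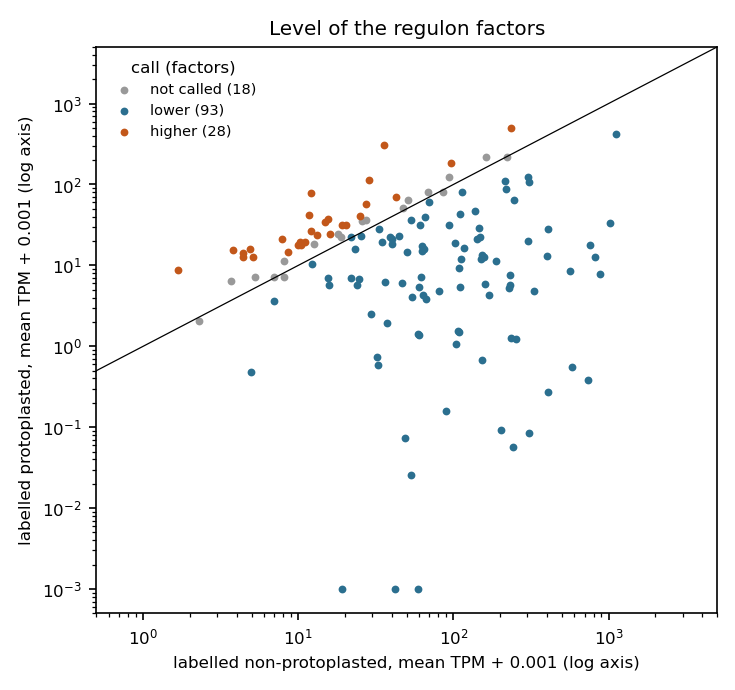
Mean TPM + 0.001 of the 139 regulon TFs in the 3 libraries labelled protoplasted (vertical, log axis) and in the 3 labelled non-protoplasted (horizontal, log axis), coloured by call. Points below the diagonal are lower in the libraries labelled protoplasted: 93 TFs were called lower and 28 higher, and the 3 points at the bottom had 0 counts in all libraries labelled protoplasted.

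The study named TF families for the leading regulons, those with a rank of 7 or better in at least 1 cluster. Of these, 33 were among the 139 TFs, with 24 lower, 5 higher and 4 not called, and a median log2FC of −3.92, beside 38.3% lower and 38.7% higher among all genes tested. The other 106 TFs had a median of −1.63. Family labels were at hand for these 33 TFs alone, so that counts by family cover the leading regulons and not all 139 TFs. The lower calls were spread over HSF, WRKY, C2H2, bHLH, CG-1, bZIP, AP2/ERF, NAC, MYB, DOF and ARF genes.

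All 5 WRKY genes among the leading regulons, named after a conserved peptide of their DNA-binding domain, were lower by more than 3 on the log2 scale, with a median of −6.38. BdiBd21-3.2G0294300, a late GC regulon, had 0.0764, 0 and 0 CPM in the libraries labelled protoplasted and 86.6, 58.3 and 68.0 CPM in those labelled non-protoplasted. Computed against 3 counts in each library, it was at least 641-fold lower (adjusted p = 1.9e-08, edgeR). BdiBd21-3.2G0071700, an SC regulon, had 0 counts in every library labelled protoplasted and 8.61 to 11.2 CPM in those labelled non-protoplasted, at least 90.9-fold lower on the same basis (adjusted p = 5.7e-07, edgeR). Both were thus at or near the limit of detection in 1 group alone. They passed the filter on low counts only through the libraries labelled non-protoplasted, so that only a lower call was open to them. BdiBd21-3.3G0133400, also an SC regulon, had 4.05, 3.68 and 3.41 CPM in the libraries labelled protoplasted, against 340, 291 and 300.1 CPM in those labelled non-protoplasted (log2FC −6.38, SE 0.16, adjusted p = 4.6e-09, edgeR). BdiBd21-3.3G0078900, a regulon of SMCs and interstomatal cells, had 15.6, 2.51 and 17.3 CPM in the libraries labelled protoplasted and 618, 656 and 580 CPM in those labelled non-protoplasted (log2FC −5.71, SE 0.61). The early GMC regulon BdiBd21-3.2G0208200 was even within each group, with 0.460 to 0.496 CPM in the libraries labelled protoplasted, against 22.4 to 28.2 CPM in those labelled non-protoplasted.

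The single HSF gene among the leading regulons gave the largest lower bound of a fold among the 7 TFs that had one. Bounds were taken only for TFs with 3 or fewer counts in every library labelled protoplasted. Such TFs could pass the filter on low counts only through the libraries labelled non-protoplasted, and could then only be called lower. Heat shock factors activate chaperone genes. BdiBd21-3.2G0249500, a regulon of early GCs, had 0.0764, 0.0354 and 0 CPM in the libraries labelled protoplasted and 191, 202 and 214 CPM in those labelled non-protoplasted. This was at least 1828-fold lower against 3 counts in each library (adjusted p = 4.2e-09, edgeR). BdiBd21-3.1G0966300 was the leading TF labelled with a CG-1 domain, the DNA-binding domain of calmodulin-binding transcription activators. It had 18.1, 12.3 and 15.5 CPM in the libraries labelled protoplasted, against 546, 469 and 488 CPM in those labelled non-protoplasted (log2FC −5.03, SE 0.19, adjusted p = 2.5e-08, edgeR), with no overlap.

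Of 5 C2H2 zinc finger genes, 4 were lower and 1 was higher. BdiBd21-3.2G0315400, an SC regulon, had 0.153, 0.213 and 0.333 CPM in the libraries labelled protoplasted and 499, 372 and 425 CPM in those labelled non-protoplasted (log2FC −10.82, SE 0.27, adjusted p = 4.6e-09, edgeR). BdiBd21-3.1G0197500 of late GCs had 0.296 to 0.878 CPM in the libraries labelled protoplasted, against 40.7 to 50.2 CPM in those labelled non-protoplasted. The leading regulon of 4 clusters, BdiBd21-3.1G0049500, differed within its group, with 6.798, 0 and 0.185 CPM in the libraries labelled protoplasted, and 369, 315 and 321 CPM in those labelled non-protoplasted. Its log2FC was −7.19 (SE 1.13, adjusted p = 0.00026, edgeR) and −11.76 without protoplasted replicate 1. BdiBd21-3.1G0049400, whose ID is next to it, had 7.91, 0.106 and 0.629 CPM in the libraries labelled protoplasted, and 265, 230 and 229 CPM in those labelled non-protoplasted, with a log2FC of −6.40 (SE 0.97) and −9.35 without protoplasted replicate 1. Another TF with a neighbouring ID, BdiBd21-3.1G0049600, had a log2FC of −8.04. Reads could have been exchanged between such neighbours if their sequences are alike, so that their single values are uncertain. The exception was BdiBd21-3.2G0186800, a regulon of stage 0 to 2 cells and SMCs, which was higher at 395, 483 and 471 CPM in the libraries labelled protoplasted, against 196, 309 and 262 CPM in those labelled non-protoplasted (log2FC 0.81, SE 0.18, adjusted p = 0.0025, edgeR).

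Of 4 AP2/ERF genes, the family of ethylene response factors, 3 were lower. BdiBd21-3.3G0248900 of early GMCs had 0.382, 0 and 0.037 CPM in the libraries labelled protoplasted and 194, 203 and 167 CPM in those labelled non-protoplasted (log2FC −10.38, SE 0.48, adjusted p = 7.8e-08, edgeR). Without protoplasted replicate 1 its log2FC was −12.95. BdiBd21-3.2G0158900 of SCs was even within groups, at 4.51 to 4.75 CPM in the libraries labelled protoplasted, against 66.3 to 78.8 CPM in those labelled non-protoplasted. BdiBd21-3.2G0276700, a leading regulon in 5 of the 8 clusters, had 99.9, 19.0 and 36.7 CPM in the libraries labelled protoplasted and 161, 167 and 146 CPM in those labelled non-protoplasted. Its log2FC was −1.61 (SE 0.48, adjusted p = 0.012, edgeR) and −2.50 without protoplasted replicate 1. The fourth, BdiBd21-3.1G0980300 of dividing GMCs, was not called at 1.31 to 2.74 CPM in the libraries labelled protoplasted and 1.37 to 1.77 CPM in those labelled non-protoplasted, and was called higher without protoplasted replicate 2 (log2FC 0.78).

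The 2 NAC genes, members of a plant-specific family, differed in direction. BdiBd21-3.1G0054700, a regulon of SMCs and interstomatal cells, had 39.9, 1.31 and 26.9 CPM in the libraries labelled protoplasted, against 799.9, 994 and 797 CPM in those labelled non-protoplasted (log2FC −5.25, SE 0.90, adjusted p = 0.00049, edgeR). Its log2FC was −5.93 without protoplasted replicate 1 and −4.68 without protoplasted replicate 2. BdiBd21-3.3G0180300, an SC regulon, was higher at 11.04, 7.83 and 8.63 CPM in the libraries labelled protoplasted, against 2.11, 2.27 and 2.13 CPM in those labelled non-protoplasted (log2FC 2.07, SE 0.20, adjusted p = 1e-05, edgeR). No library of either gene lay within the range of the other group.

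All 3 bHLH genes among these leading regulons, of the family that includes the stomatal factors, were lower. The AIB-like gene BdiBd21-3.2G0610700 of early GCs had 5.19, 1.81 and 5.37 CPM in the libraries labelled protoplasted and 262, 204 and 202 CPM in those labelled non-protoplasted (log2FC −5.76, SE 0.37). BdiBd21-3.1G0137000 of SMCs and interstomatal cells had 7.07, 8.01 and 5.11 CPM in the libraries labelled protoplasted, against 306, 229 and 225 CPM in those labelled non-protoplasted (log2FC −5.23, SE 0.22). The change was small in BdiBd21-3.2G0105800 of early and dividing GMCs, at 63.1 to 76.0 CPM in the libraries labelled protoplasted and 90.2 to 110 CPM in those labelled non-protoplasted. Its log2FC was −0.49 (SE 0.13, adjusted p = 0.0059, edgeR), and the call was lost without TMM scaling. Both bZIP genes were lower. BdiBd21-3.1G0256900, labelled bZIP60 after a factor of the unfolded protein response in *A. thaliana*, had 13.98, 10.8 and 14.3 CPM in the libraries labelled protoplasted, against 210, 191 and 196 CPM in those labelled non-protoplasted (log2FC −3.93, SE 0.15). BdiBd21-3.3G0415700 of late GCs had 1.77 to 2.52 CPM in the libraries labelled protoplasted, against 26.6 to 39.1 CPM in those labelled non-protoplasted.

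The MYB, GATA, ARF, B3, DOF and homeobox genes did not share a direction. Among 4 MYB genes, BdiBd21-3.1G0268100 of late GCs was lower (4.92 to 6.68 CPM in the libraries labelled protoplasted, against 71.7 to 84.4 CPM in those labelled non-protoplasted, log2FC −3.83). BdiBd21-3.2G0402400 of stage 0 to 2 cells was higher, with 40.1, 32.0 and 32.7 CPM in the libraries labelled protoplasted, against 10.9, 15.6 and 12.3 CPM in those labelled non-protoplasted (log2FC 1.43, SE 0.16, adjusted p = 3.2e-05, edgeR). The MYBS2-labelled BdiBd21-3.3G0437600 was lower by little (log2FC −0.50, SE 0.14) and lost its call without TMM scaling, and BdiBd21-3.3G0440100 of dividing GMCs was not called (log2FC −0.39, SE 0.21) but was called lower without protoplasted replicate 1, at −0.67. GATA factors bind a short motif of that name. BdiBd21-3.2G0805500 of stage 0 to 2 cells had 37.1, 32.1 and 36.2 CPM in the libraries labelled protoplasted and 6.14, 6.57 and 6.999 CPM in those labelled non-protoplasted (log2FC 2.41, SE 0.13, adjusted p = 2.0e-07, edgeR), whereas BdiBd21-3.1G0039500 of early GCs was not called (log2FC 0.08, SE 0.12), though it was called higher without TMM scaling (log2FC 0.47). The HDG12-like homeobox gene BdiBd21-3.1G0606600, of a class active in the plant epidermis, was higher with 40.3, 24.8 and 29.2 CPM in the libraries labelled protoplasted, against 16.02, 14.9 and 12.2 CPM in those labelled non-protoplasted (log2FC 1.13, SE 0.19, adjusted p = 0.00047, edgeR). The DOF gene BdiBd21-3.2G0644600 was lower at 1.03 to 1.76 CPM in the libraries labelled protoplasted, against 4.07 to 6.75 CPM in those labelled non-protoplasted. ARF3b, BdiBd21-3.2G0261600, an auxin response factor, was close to the threshold (log2FC −0.27, SE 0.11, adjusted p = 0.047, edgeR), lost its call whichever library was left out and changed sign under other scalings. The B3 gene BdiBd21-3.1G0972200 was not called, at 3.32 to 6.70 CPM in the libraries labelled protoplasted and 3.82 to 5.97 CPM in those labelled non-protoplasted.

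**Figure D2:**
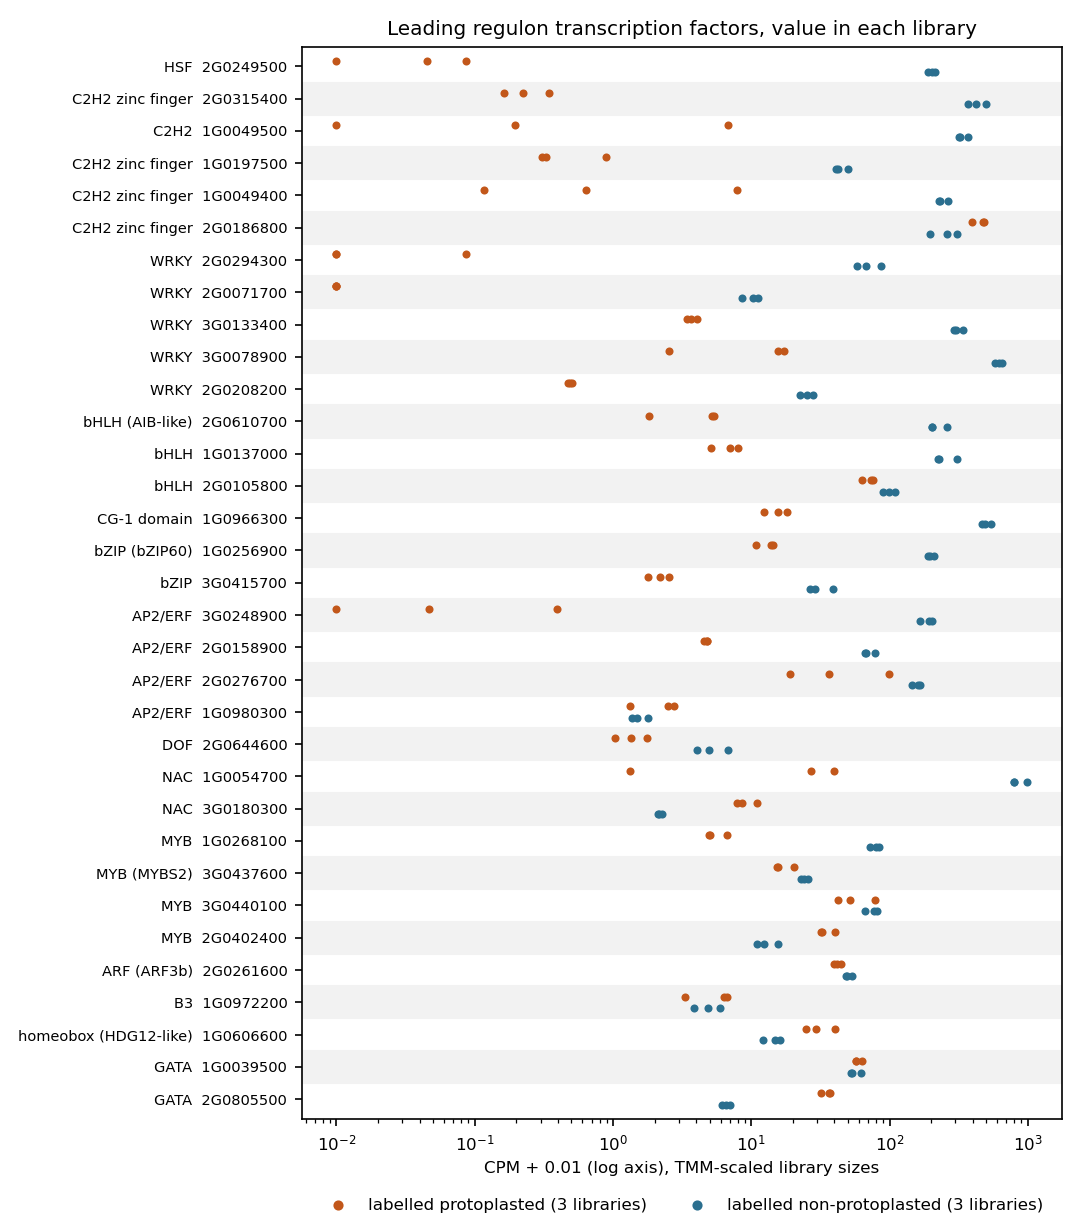
CPM + 0.01 (log axis) of the 33 leading regulon TFs in each library, ordered by family, with the 3 libraries labelled protoplasted drawn above the 3 labelled non-protoplasted. The WRKY and HSF genes show no overlap, with the 5 WRKY genes all lower by more than 3 on the log2 scale, while GATA and B3 genes near the bottom overlap or lie higher in the libraries labelled protoplasted.

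Among all 139 TFs, the lowest log2FC belonged to BdiBd21-3.2G0730700, a regulon TF in 6 clusters for which no family was given. It had 0 counts in every library labelled protoplasted and 34.1, 38.8 and 29.0 CPM in those labelled non-protoplasted, at least 307-fold lower against 3 counts in each library (adjusted p = 9.8e-08, edgeR). BdiBd21-3.2G0688100, also of 6 clusters, had 0.191, 0.0354 and 0 CPM in the libraries labelled protoplasted, against 414, 318 and 315 CPM in those labelled non-protoplasted, and its fitted log2FC was −12.11, or −13.84 without protoplasted replicate 1. In all, 7 TFs had 3 or fewer counts in every library labelled protoplasted, and 0 TFs were that low in the libraries labelled non-protoplasted. The share of all genes that low in 1 group was not taken, so this count is not shown to be particular to these TFs. The 7 TFs passed the filter on low counts through the libraries labelled non-protoplasted alone, so that only a lower call was open to them. The medians over all 139 TFs, by rank, by cluster and by number of clusters are the same with these 7 TFs set at their bounds. They could not have moved, because every bound still lies below each of these medians. The highest log2FC was 2.83 (SE 0.15, adjusted p = 1.6e-07, edgeR) for BdiBd21-3.2G0025700, with 201, 244 and 263 CPM in the libraries labelled protoplasted, against 31.8, 36.0 and 31.7 CPM in those labelled non-protoplasted. BdiBd21-3.3G0467400 had 111, 31.6 and 47.0 CPM in the libraries labelled protoplasted, against 19.8, 22.3 and 16.1 CPM in those labelled non-protoplasted. Its log2FC of 1.71 (SE 0.40) became 1.03 without protoplasted replicate 1, and the call held.

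The clusters differed in how many of their regulon TFs were lower, and a TF can head a regulon in several clusters. In stage 0 to 2, the earliest cells of the stomatal files, 81 of 118 TFs were lower and 22 were higher (median log2FC −1.83). The early GMC cluster had 41 of 46 lower (median −5.13) and the dividing GMC cluster 52 of 73 (median −2.08). In early GCs 49 of 60 TFs were lower (median −3.85) and in late GCs 43 of 49 (median −4.14). The SMC cluster had 26 of 29 lower (median −5.23), the SC cluster 44 of 49 (median −5.03) and the interstomatal cluster 19 of 21 (median −5.23). All 8 shares were above the 38.3% of all genes. The TFs that headed a regulon in stage 0 to 2 alone were more even, with 22 of 41 lower, 14 higher and a median of −0.84. Of the 7 found in dividing GMCs alone, 3 were lower and 3 were higher. The higher share was 34.1% in stage 0 to 2 alone and 42.9% in dividing GMCs alone, both near the 38.7% of all genes tested.

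**Figure D3:**
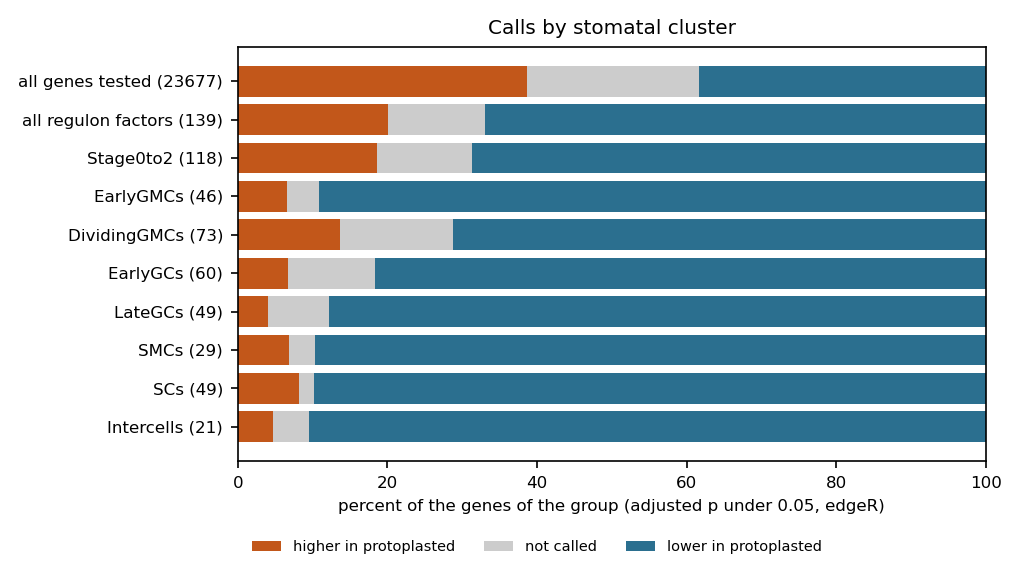
Percent of regulon TFs called higher, not called or called lower in the libraries labelled protoplasted for each of the 8 stomatal clusters, for all 139 TFs and for all 23677 genes tested, with the number of genes in brackets. The lower share runs from 81 of 118 TFs in stage 0 to 2 to 19 of 21 in the interstomatal cluster, each above the 38.3% of all genes.

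The leading regulons were counted for each cluster as well. Of the 5 leading TFs of stage 0 to 2, 0 were lower (edgeR, adjusted p), 4 were higher and 1 was not called, with a median log2FC of 1.13. All 7 leading TFs of late GCs, all 7 of interstomatal cells and all 5 of early GMCs were lower. In SMCs and in SCs 6 of 7 were lower and 1 was higher, in early GCs 4 of 5 were lower, and in dividing GMCs 2 of 4 were lower with the other 2 not called. Among all genes tested, 38.3% were lower and 38.7% were higher, and the counts here rest on 4 to 7 TFs per cluster. No test of a difference between clusters was made, since they share TFs and libraries.

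TFs found in many clusters were lower by more. Of the 55 TFs that headed a regulon in 1 cluster, 31 were lower and 18 were higher (median log2FC −0.84). The higher share of these 55, 32.7%, was near the 38.7% of all genes tested, and the lower share was 56.4%, against 38.3%. Of the 44 in 2 to 4 clusters, 26 were lower and 8 were higher (median −0.83). Of the 22 in 5 to 7 clusters, 19 were lower and 2 were higher (median −3.97). Of the 18 found in all 8 clusters, 17 were lower, 0 were higher and 1 was not called (median −5.42). That one, BdiBd21-3.1G0973400, had 185, 33.5 and 77.7 CPM in the libraries labelled protoplasted and 116, 136 and 123 CPM in those labelled non-protoplasted, so that the groups overlapped. The lowest of the 18 was BdiBd21-3.2G0681500, with 0.229, 0.142 and 0.333 CPM in the libraries labelled protoplasted, against 630, 525 and 512 CPM in those labelled non-protoplasted (log2FC −11.18). Spearman's rho between the number of clusters and the log2FC was −0.40 over the 139 TFs, a description, since all values come from the same 6 libraries.

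The same order was seen in the level in only 1 of the groups. From TFs of 1 cluster to TFs of 8 clusters, the median level was 16.01, 14.8, 12.5 and 12.9 TPM in the libraries labelled protoplasted, against 24.8, 42.2, 174 and 353 TPM in those labelled non-protoplasted. Spearman's rho of the number of clusters with the mean TPM was 0.018 in the libraries labelled protoplasted and 0.67 in those labelled non-protoplasted, over the same 139 TFs. The 18 TFs of all 8 clusters summed to 1616, 657 and 916 TPM in the libraries labelled protoplasted, against 8678, 9373 and 8648 TPM in those labelled non-protoplasted. The regulons had been inferred from cells that were themselves protoplasts. What this and the higher rho in the libraries labelled non-protoplasted mean for the conflicting labels was not tested.

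**Figure D4:**
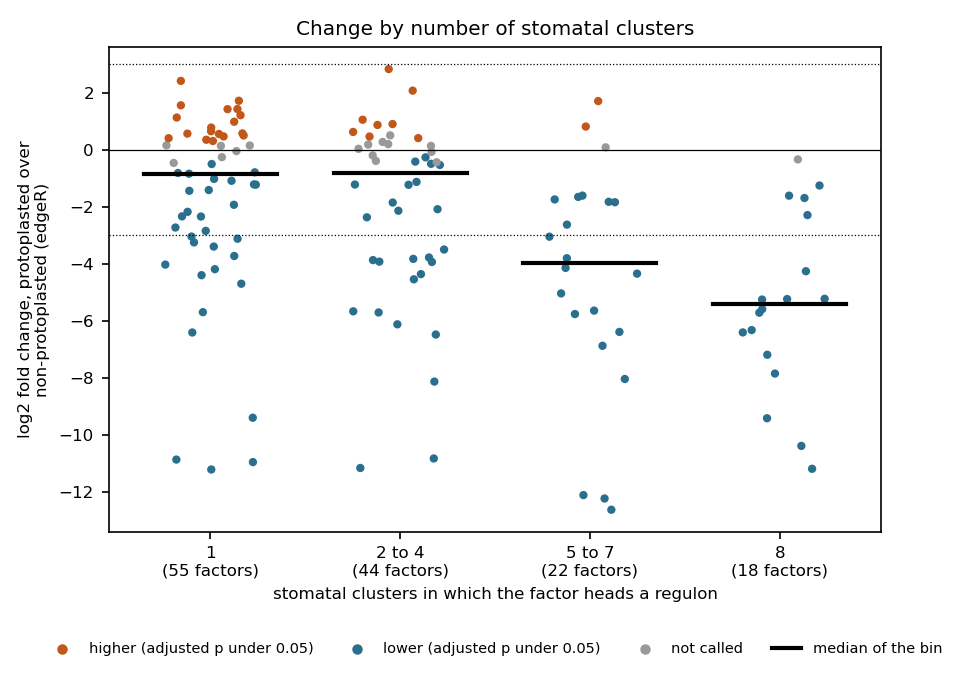
The log2FC (protoplasted over non-protoplasted) of each of the 139 TFs, by the number of stomatal clusters in which it heads a regulon, with the median of each bin as a black bar and dotted lines at −3 and 3. The medians are −0.84 and −0.83 in the bins of 1 and 2 to 4 clusters, and −3.97 and −5.42 in the bins of 5 to 7 and 8 clusters.

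The list also marks whether a TF was itself differentially expressed in a cluster. Of the 123 TFs so marked in at least 1 cluster, 79 were lower and 28 were higher (median log2FC −1.69), beside 38.3% and 38.7% of all genes tested. Of the other 16, 14 were lower, 0 were higher (edgeR, adjusted p) and 2 were not called (median −2.88). The difference between these subsets was not tested.

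A part of the regulon TFs varied widely among the libraries labelled protoplasted. The ratio of the highest to the lowest library was taken for TFs with a group mean of at least 1 CPM, and a ratio over 3, a limit chosen after the values were seen, was found in 15 of 119 TFs in the libraries labelled protoplasted, against 2.36% of all genes. In the libraries labelled non-protoplasted it was found in 1 of 139 TFs, against 0.46% of all genes. In all 15 TFs the lowest library was protoplasted replicate 2, and the highest was protoplasted replicate 1 in 12 of them and replicate 3 in the other 3. Of the 15 TFs, 9 were among the 15 TFs of all 8 clusters that had such a mean, and 6 were among the other 104. BdiBd21-3.1G0714400, for example, had 9.89, 1.28 and 4.85 CPM in the libraries labelled protoplasted and 425, 447 and 405 CPM in those labelled non-protoplasted. The median ratio over all TFs was 1.36 in the libraries labelled protoplasted and 1.17 in those labelled non-protoplasted, beside 1.31 and 1.22 over all genes in the libraries labelled protoplasted and in those labelled non-protoplasted, so that the wide spread concerned a minority of the TFs. Protoplasted replicate 1 also had the highest summed TPM of the epidermis and stomatal lineage markers in its group, whose part in this spread was not tested. Without protoplasted replicate 1 the number of lower TFs was 97 and without protoplasted replicate 2 it was 92, beside 93 with all libraries.

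**Figure D5:**
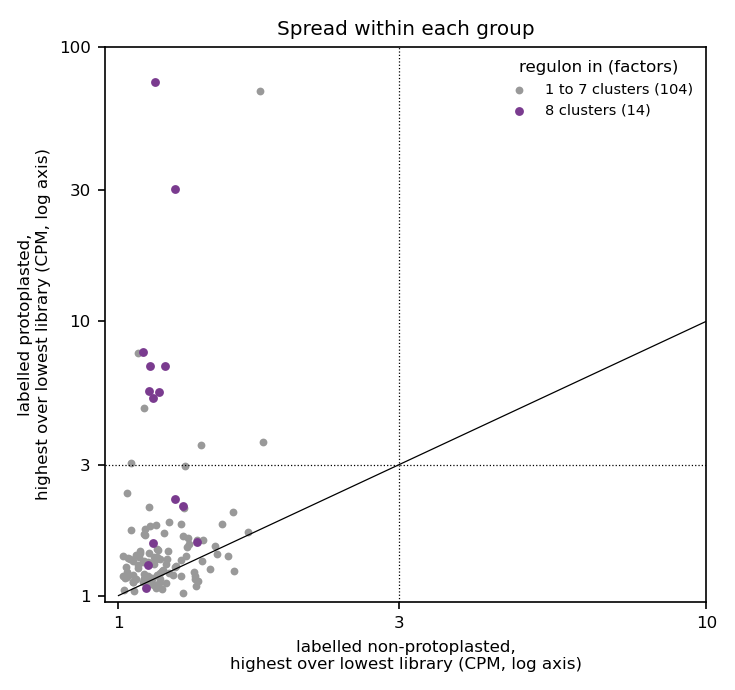
Highest over lowest library (CPM, log axes) within the libraries labelled protoplasted (vertical) and within those labelled non-protoplasted (horizontal), for the 118 TFs with a mean of at least 1 CPM and a count in every library, with dotted lines at a ratio of 3. In the libraries labelled protoplasted, TFs of all 8 clusters reach a ratio of 74.4 and a TF of 2 clusters reaches 69.0. All 118 points lie below 3 in those labelled non-protoplasted.

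Of the 8 regulon TFs with a name in the study, 4 were higher and 4 were not called, beside the 38.7% of all genes tested that were higher. None was lower by edgeR at an adjusted or an unadjusted p under 0.05 (0 of 8, against 38.3% of all genes), but 1 was called lower by DESeq2, by edgeR with RLE normalization and by edgeR with at least 10 counts in every library, and 2 without protoplasted replicate 1. *BdMUTE*, which drives GMC division and SC recruitment, had 3.67, 1.52 and 2.41 CPM in the libraries labelled protoplasted and 0.136, 0.231 and 0.142 CPM in those labelled non-protoplasted (log2FC 3.82, SE 0.48, adjusted p = 5.5e-05, edgeR). *BdFAMA*, which drives guard cell differentiation, had 8.44, 7.01 and 6.70 CPM in the libraries labelled protoplasted, against 4.98, 3.15 and 3.78 CPM in those labelled non-protoplasted (log2FC 0.91, SE 0.21). *BdTCP4-like* (log2FC 2.23) and *BdPDF2-like* (log2FC 1.60) were higher too, and *BdSCRM2*, which encodes a putative bHLH partner of BdFAMA, was not called (log2FC −0.30, SE 0.14). The median of the 8 was 0.63, beside −1.82 for the 139. The difference between the lists was not tested. *BdMUTE*, *BdFAMA*, *BdPDF2-like* and *BdHDG2-like* also stand among the cell type markers given above.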

How the data were processed

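Polyadenylated RNA of 6 libraries was sequenced. After FastQC, the authors aligned reads to the Bd21-3 genome (bowtie2), and summarizeOverlaps gave the deposited counts per gene, which are raw. Gene lengths, the signal per kilobase (count over length) and TPM (the same signal at 1 sum per library, with group means) were deposited too. Bowtie2 does not split reads over introns, and the counting mode and use of strand are not given in the sources used here, so overlapping or similar genes may have exchanged reads. Columns of single libraries left unused numbered 0. The treatment entry of the labels contradicts the titles in 6 of 6 samples, and titles were used.

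The test was that of edgeR 4.0.16 in R 4.3.3 (filterByExpr with a minimum count of 10, TMM, glmQLFit, glmQLFTest, prior count 0.125). SE is the absolute log2FC over the root of F. CPM used TMM-scaled library sizes. Where a group had at most 3 counts in every library, the fold is a lower bound against 3 counts per library, which covers counting error only. On simulated counts with known changes the test recovered 168 of 198 changed genes and called 6 unchanged ones. In that simulation few genes changed and all genes had the same dispersion, whereas 77.0% of the genes tested were called in the data. It therefore cannot show how the test and TMM behave on these libraries. Alternatives were DESeq2 1.42.0, RLE, library size only, other filters, limma 3.58.1 on log2 TPM with a pseudocount of 1 or 0.1, a prior count of 2, a replicate block and each library left out. The study calls the samples biological replicates.

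Members came from the study's regulon list and family labels from its plots of the 41 leading regulons, of which 33 are members. Members, lists and tests were chosen with earlier results of these data known. Named genes were the leading regulon TFs, the 5 highest and 5 lowest log2FC at a mean of at least 10 CPM with no overlap between groups (at most 2 per direction if without a family label), and the extremes of TFs in 8 clusters. BdiBd21-3.1G0049600, BdiBd21-3.1G0714400 and the overlapping TF of all 8 clusters fell outside and were chosen after their values were seen. The RefSeq table at hand (Brachypodium_distachyon_v3.0) matched 0 gene IDs, so no sequence was read and a planned search of promoter motifs was not run.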

Additional observations from a re-analysis of the deposited data

How the results depend on the processing

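Of 225 comparisons of counts and medians with the values reported, over 15 alternatives, 213 were taken as near the reported value. The limit for counts was wide. With library size only, 37 higher TFs were taken as near 28. With at least 10 counts in every library, 72 lower TFs were taken as near 93. For the median, the limit was a shift of 0.134, its spread between replicates. The number of TFs above a log2FC of 3, which was 0, became 1 with library size only, with log2(TPM + 1) and with log2(TPM + 0.1). With at least 10 counts in every library 118 TFs were tested, and 35 were below −3, since that filter removes TFs near 0 in the libraries labelled protoplasted. The median of −1.82 was −1.44 with library size only, −1.25 with at least 10 counts in every library, −1.53 with log2(TPM + 1) and −1.56 with log2(TPM + 0.1). Library size only moved the median of all genes by 0.38, log2(TPM + 1) by 0.21, log2(TPM + 0.1) by 0.27 and the fit of all genes with a count by −0.11, and library size only raised the higher share of called genes to 61.2%, from 50.2%. Among the 8 named regulon TFs, 1 was lower under DESeq2, under RLE and with at least 10 counts in every library, and 0 to 2 without 1 library each, with 2 without protoplasted replicate 1. With 1 library left out, 22 to 29 TFs were higher, 92 to 97 lower and 53 to 57 below −3, 0 were above 3, and the median ran from −1.90 to −1.74. BdiBd21-3.2G0261600 turned to 0.12 with library size only, to 0.021 with log2(TPM + 1) and to 0.022 with log2(TPM + 0.1), with adjusted p from 0.34 to 0.86 in these fits. Correlations of same-numbered deviations between the groups were 0.12, 0.038 and 0.083, and those of other pairs ran from −0.097 to 0.046. Protoplasted replicates 1 and 3 correlated best with their own number, and protoplasted replicate 2 with non-protoplasted replicate 3. These small values do not settle whether the replicate numbers pair the samples. With the replicate block 28 TFs were higher, 93 lower and 56 below −3, and the median was −1.85. Precision is limited by 3 libraries per group, and the depth left 21 TFs under 10 counts in a library labelled protoplasted. The cause of other shifts was not tested.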

Other observations

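The regulon list covers a part of the gene IDs. The 139 TFs carry 56 IDs with the prefix 1G, 56 with 2G and 27 with 3G, and 0 with 4G or 5G, whereas 25.7% of the genes tested have a 4G or 5G ID. The last ID of the list is BdiBd21-3.3G0487100, and 35.3% of the genes tested have an ID after it. Of the 8363 genes tested after that ID, 37.4% were lower in the libraries labelled protoplasted, beside 38.8% of the 15314 up to it.

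With the 139 TFs in order of ID, 7 pairs of consecutive TFs had IDs within 300 of each other. In 6 of these pairs both TFs were lower, where 93 of all 139 TFs were lower. The pairs of BdiBd21-3.1G0049500 with BdiBd21-3.1G0049400 and with BdiBd21-3.1G0049600 share a TF. In the pair BdiBd21-3.3G0080300 and BdiBd21-3.3G0080500 the first was lower (log2FC −1.74) and the second was not called (log2FC 0.03). The median gene length of the TFs was 2745 bases, beside 3170 bases over all genes tested, and Spearman's rho between length and log2FC was 0.35 over the 139 TFs, a description over genes of the same libraries.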
